A study of Mus musculus with 8 samples.

Results

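The 10 genes described here encode the microglial receptor Trem2, proteins that carry or dampen its signal, and the membrane-shaping protein Bin1, which is listed with them. The signalling proteins are the adaptors Tyrobp and Hcst, the kinases Syk and Btk, the scaffold Blnk, the enzymes Plcg2 and Inpp5d, and the exchange factor Vav1. The 10 genes were chosen by name and matched by Ensembl identifier through GENCODE symbols. All 10 of 10 were found among the 54532 genes of the count table and passed the filter on low counts. RNA had been sequenced from mouse spinal cord microglia, sorted alive as CD11b+ CD45low Ly6C- cells. The 8 libraries came from 8 female mice, 4 of genotype WT and 4 carrying the knock-in named Cd11b-P2X4mCherryIN (KI), and each is named here by its mouse number. Strain, age and treatment are not given in the labels used here, nor is the promoter or cell type in which the knock-in is active. The knock-in's label names P2X4, a cation channel gated by ATP outside the cell, the myeloid surface protein CD11b and the fluorescent protein mCherry.

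Trem2 is a surface receptor of microglia and other macrophages that binds lipids, lipoproteins and cell debris. It has no signalling tail of its own and pairs with Tyrobp (also called DAP12), whose ITAM motif is phosphorylated by Src family kinases and then recruits Syk, or with Hcst (DAP10), which recruits PI3K. Syk and the scaffold Blnk bring in Btk, Vav1 and Plcg2, which lead to calcium release and actin remodelling, while the lipid phosphatase Inpp5d (SHIP1) removes the PI3K product and dampens the signal. Trem2, Plcg2, Inpp5d and Bin1 are also known as genes near variants linked to Alzheimer's disease in humans.

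Libraries held 45167483 to 54049801 reads on genes. Reads per library ran from 410 to 685 for Hcst, the member read least, and from 67418 to 80913 for Trem2. The sort was dominated by microglial transcripts. The 10 microglia markers summed to 36830 to 42190 CPM (reads of a gene scaled to a common library size with TMM factors) in WT and 35840 to 40440 in KI. The 9 T and NK cell markers summed to 0.334 to 3.51 CPM over both groups. Blnk and Btk are best known from B cells, but Cd79a, Pax5 and Ms4a1, which define that lineage, reached at most 1.5, 0.0915 and 2.4 CPM in any library, against a mean of 365 CPM of Blnk in WT. On the same list of B cell markers, Cd79b stood at 80.8 to 107 CPM in WT and 97.0 to 116 in KI, and the immunoglobulin gene Ighm made up most of the sum (863 to 1052 CPM in WT, 908 to 952 in KI). The part of B cells in the levels of Blnk and Btk was not tested. None of the 11 marker sums, the microglial one included, reached an exact permutation p under 0.05 before adjustment. The smallest was 0.114, for erythroid genes (159 to 523 CPM in WT, 96.2 to 306 in KI), of which 3 of 5 were lower at an unadjusted edgeR p under 0.05. Among the 10 microglia markers at that level, Cx3cr1 (log2 fold change −0.23) and Tmem119 (−0.32) were lower in KI and Gpr34 (0.12) higher, named after their values were seen. KI 528 held the most of the neutrophil (56.0 CPM), monocyte (27.0) and border-associated macrophage (17.1) markers.

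The members lie on 8 chromosomes of mm10. Trem2 (ENSMUSG00000023992) spans chromosome 17 from 48346401 to 48354147 on the plus strand, and Vav1 (ENSMUSG00000034116) lies on the same chromosome at 57279100 to 57328031. Tyrobp (ENSMUSG00000030579, chromosome 7, 30413760 to 30417585, plus strand) and Hcst (ENSMUSG00000064109, 30417712 to 30419854, minus strand) are neighbours that point towards each other, with 126 bases between their ends. Their exons do not overlap. The others are Syk (ENSMUSG00000021457, chromosome 13, 52583173 to 52648792), Plcg2 (ENSMUSG00000034330, chromosome 8, 117498291 to 117635142), Inpp5d (ENSMUSG00000026288, chromosome 1, 87620312 to 87720507), Btk (ENSMUSG00000031264, chromosome X, 134542336 to 134583570), Blnk (ENSMUSG00000061132, chromosome 19, 40928927 to 40994535), and Bin1, given with its values. Except for Bin1, no member shares exon bases with another annotated gene.

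The start regions of 3 members are shown because Trem2 heads the chain and because Inpp5d and Vav1, among the members with lower means in KI, hold the letters searched for. Each window runs from 250 bases before the RefSeq start to 50 bases after it (GRCm38.p6) and reads in the direction of the gene. Capitals mark the letters GAGGAA or their reverse complement TTCCTC. They are 1 form of the site recognised by the macrophage transcription factor PU.1, whose gene is Spi1. The windows are chr17:48346151-48346450 for Trem2, chr1:87620062-87620361 for Inpp5d and chr17:57278850-57279149 for Vav1, all on the plus strand.
Trem2: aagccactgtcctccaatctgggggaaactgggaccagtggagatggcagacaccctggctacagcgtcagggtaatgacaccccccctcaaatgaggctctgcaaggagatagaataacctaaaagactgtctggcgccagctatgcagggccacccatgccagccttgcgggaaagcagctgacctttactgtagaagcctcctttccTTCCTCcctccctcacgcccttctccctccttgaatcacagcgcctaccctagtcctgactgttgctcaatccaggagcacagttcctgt
Inpp5d: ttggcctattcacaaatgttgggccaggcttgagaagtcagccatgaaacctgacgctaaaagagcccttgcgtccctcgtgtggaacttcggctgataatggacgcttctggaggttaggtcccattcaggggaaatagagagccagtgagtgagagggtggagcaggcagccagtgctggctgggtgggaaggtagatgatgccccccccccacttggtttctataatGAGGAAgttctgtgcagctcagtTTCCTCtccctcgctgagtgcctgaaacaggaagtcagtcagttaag
Vav1: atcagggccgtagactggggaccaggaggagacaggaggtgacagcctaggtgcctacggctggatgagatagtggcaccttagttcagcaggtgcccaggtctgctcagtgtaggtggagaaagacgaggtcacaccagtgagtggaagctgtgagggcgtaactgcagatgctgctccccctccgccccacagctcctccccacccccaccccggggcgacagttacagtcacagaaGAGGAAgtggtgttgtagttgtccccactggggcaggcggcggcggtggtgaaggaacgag
The letters start 40 bases before the Trem2 start, 20 bases before and 3 bases after the Inpp5d start, and 11 bases before the Vav1 start. The 8 members with a window had 9 windows, of which 5 (55.6%) held the letters, beside 28.3% of all 32851 windows. The others that held them were a Btk window and 1 of the 2 Syk windows, and the windows of Hcst, Plcg2 and Blnk held none. No other motif or form of the site was searched, such as AGGAAG, which the Hcst and Blnk windows hold. A match is a description of letters only, and its relation to the KI means was not tested.

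Levels of different genes were compared as FPKM from the authors' deposited table, which divides by exon length after 190 bases are taken off it. Tyrobp stood highest, at 1215 ± 39.2 FPKM in WT against 1202 ± 23.4 for KI (SD over 4 libraries each), and 27 tested genes had a higher mean. Trem2 came next at 311 ± 8.81 and 318 ± 11.1 FPKM, so that in this unit Tyrobp exceeded its receptor by 3.85 times over the 8 libraries. Bin1 followed at 158 ± 10.9 and 142 ± 12.7 FPKM, then Vav1 at 95.1 ± 6.46 and 86.1 ± 3.72, and Blnk at 63.2 ± 4.22 and 65.4 ± 4.2. Down to Blnk the order held without overlap of the libraries' ranges. Inpp5d (57.9 ± 3.15 and 48.4 ± 7.26 FPKM) overlapped in range with Blnk above it and with Btk below it (44.3 ± 2.62 and 43.7 ± 2.59). Plcg2 stood at 35.4 ± 2.66 and 28.5 ± 5.38 FPKM, and the second adaptor Hcst at 18.4 ± 2.91 and 22.8 ± 1.40, again with overlapping ranges. Syk was the lowest of the chain at 11.3 ± 0.812 and 8.99 ± 1.13 FPKM, and 4930 tested genes stood above it. This order rests on the summed exon length of each gene, 4946 bases for Trem2 and 667 for Tyrobp. Taking off 190 bases raises the FPKM of the shortest members, Tyrobp and Hcst (722 bases), the most, and so raises the ratio of Tyrobp to Trem2. Before division by length Trem2 was the higher, with a WT mean of 1475 CPM against 581.5 for Tyrobp. The lengths of the transcripts present were not tested.

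**Figure D1:**
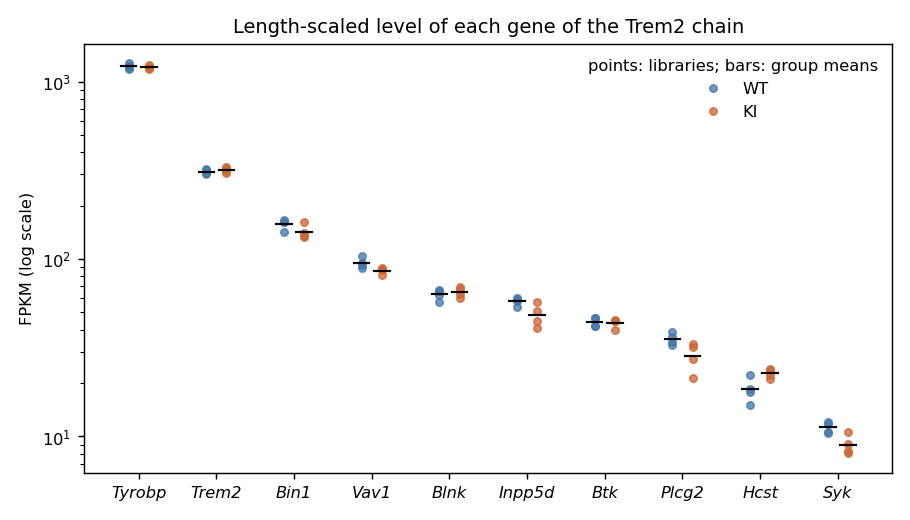
Deposited FPKM (log scale) of the 10 genes, ordered by their mean; points are the 4 WT and 4 KI libraries and bars the group means. Levels run from 1209 FPKM for Tyrobp to 10.1 for Syk over the 8 libraries.

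The comparison of the design asks how KI microglia differ from WT microglia. Trem2 and Tyrobp differed between the genotypes by less than the spread of the libraries, while Syk, Plcg2, Inpp5d, Vav1 and Bin1 had lower means in KI, none of which passed the test across all genes. By edgeR's quasi-likelihood test, 0 of the 10 members and 0 of 17291 genes (0%) had an adjusted p under 0.05. At an unadjusted p under 0.05 were 3 of the 10 members (Syk, Plcg2 and Inpp5d), all lower in KI, where 7.79% of all tested genes reached it and 4.56% did so in that direction. Means of 7 members were below WT and 3 above, with a median log2 fold change of −0.07 against 0.0005 over all tested genes. The members were chosen with earlier results of these data known, so these counts are no independent evidence. DESeq2 called 139 genes (0.804%), edgeR's likelihood ratio test 42, and limma-voom 0, none of them a member. In such bulk libraries, fewer cells of a type and less RNA per cell cannot be told apart.

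Trem2 itself was read at 1481 (WT 503), 1468 (WT 504), 1423 (WT 506) and 1528 CPM (WT 527), and at 1506 (KI 513), 1504 (KI 526), 1614 (KI 528) and 1449 CPM (KI 549). The groups overlapped, and only KI 528 lay above every WT library. This made a log2 fold change of 0.04 (SE 0.0502, edgeR adjusted p = 0.908), with a 95% interval from −4.73% to 11.2%, 0.01 without KI 528, and 0.11 with GC and length trends of each library removed. Tyrobp, the ITAM adaptor, stood at 581, 573, 562 and 610.0 CPM in WT 503, 504, 506 and 527 and at 585, 549, 590.4 and 592 in KI 513, 526, 528 and 549. Here too the groups overlapped, and KI 526 was the lowest of all 8. Tyrobp had a log2 fold change of −0.01 (SE 0.052, edgeR adjusted p = 0.988), with an interval from −8.13% to 7.86%, and its sign turned with those trends removed and without WT 527 or KI 526.

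Hcst, the adaptor that binds PI3K, was the member with the largest difference above 0. It was read at 11.7, 9.96, 9.43 and 8.13 CPM in WT 503, 504, 506 and 527 and at 11.42, 11.49, 13.3 and 12.7 CPM in KI 513, 526, 528 and 549. All KI libraries lay above 3 of the WT libraries, but WT 503 exceeded KI 513 and KI 526. On the log2 scale KI was higher by 0.32 (SE 0.166, edgeR adjusted p = 0.699), and the 95% interval ran from −3.32% to 60.9%.

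Syk, the kinase that docks on the phosphorylated ITAM, had the smallest unadjusted p of the chain (0.010, edgeR adjusted p = 0.548). Its levels were 106, 97.5, 110.4 and 97.9 CPM in WT 503, 504, 506 and 527 and 97.6, 74.1, 76.1 and 83.7 in KI 513, 526, 528 and 549. Below every WT library lay 3 of the 4 KI libraries, and KI 513 was level with WT 504. Its log2 fold change was −0.31 (SE 0.0995), a change of −19.6% with a 95% interval from −31% to −6.24%.

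Plcg2, the phospholipase that makes the calcium-releasing messenger, was read at 132, 141, 148 and 159.6 CPM in the same order of WT libraries and at 133, 109.9, 90.7 and 137 in KI 513, 526, 528 and 549. KI 513 and KI 549 lay within the WT range, and KI 526 and KI 528 below it. Its log2 fold change was −0.30 (SE 0.127, edgeR adjusted p = 0.614), and −0.20 without KI 528. Inpp5d, the inhibitory phosphatase, stood at 423, 400.2, 445 and 444 CPM in WT 503, 504, 506 and 527 and at 379, 295, 342 and 427 in KI 513, 526, 528 and 549. Again KI 526 and KI 528 were lowest and KI 549 was inside the WT range. For Inpp5d the log2 fold change was −0.25 (SE 0.102, edgeR adjusted p = 0.609), and −0.17 without KI 526. KI 513 lay below every WT library for Inpp5d and inside the WT range for Plcg2.

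Vav1, which activates Rac GTPases, was the only member whose groups did not overlap, a pattern that 2.6% of all tested genes showed with KI lower and 2.34% with KI higher (0 members). It was read at 358, 315, 322 and 332 CPM in WT 503, 504, 506 and 527 and at 311, 295.5, 292 and 313 in KI 513, 526, 528 and 549. The gap between WT 504 and KI 549 was narrow. It had a log2 fold change of −0.13 (SE 0.0601, edgeR adjusted p = 0.65), and −0.07 with GC and length trends removed.

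Btk, the Tec family kinase that phosphorylates Plcg2, ranged from 123 to 139 CPM in WT and from 122 to 134 in KI. Its log2 fold change was −0.01 (edgeR adjusted p = 0.984), with an interval from −11.5% to 11%, and its sign turned without WT 504, WT 527 or KI 528. Blnk, the scaffold that holds Btk and Plcg2 together, stood at 380.2, 336, 379 and 367 CPM in WT 503, 504, 506 and 527 and at 409, 342, 382 and 394 in KI 513, 526, 528 and 549. Above every WT library lay 3 KI libraries, and KI 526 was low. Blnk had a log2 fold change of 0.06 (SE 0.0703, edgeR adjusted p = 0.9), which ranged from 0.02 without WT 504 to 0.11 without KI 526.

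Bin1 (ENSMUSG00000024381, chromosome 18, 32377217 to 32435736), a protein that bends membranes in endocytosis, shares 256 exon bases with A830052D11Rik, a long non-coding gene on the opposite strand that held 68 reads per library on average, and counting used no strand. It was read at 360.2, 325, 374 and 366 CPM in WT 503, 504, 506 and 527 and at 321, 296, 312 and 364 in KI 513, 526, 528 and 549. Below every WT library lay 3 KI libraries, while KI 549 was inside the WT range. Bin1 had a log2 fold change of −0.14 (SE 0.0764, edgeR adjusted p = 0.721), and −0.05 with GC and length trends removed.

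**Figure D2:**
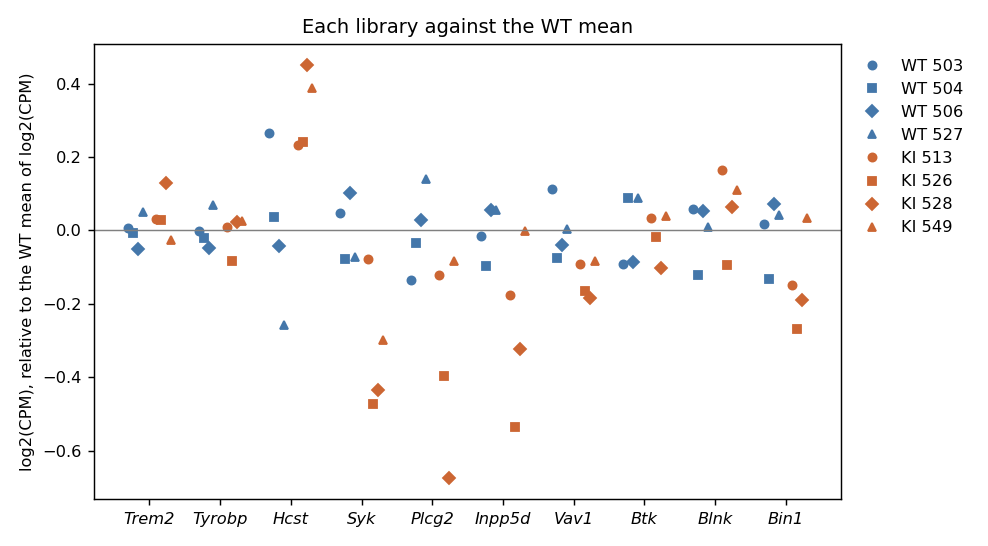
log2(CPM) of each library minus the WT mean of log2(CPM), for the 10 genes; each symbol is 1 library (WT blue, KI orange). KI 526 and KI 528 are the lowest symbols for Syk, Plcg2, Inpp5d, Vav1 and Bin1, and the genotypes intermix for Trem2, Tyrobp and Btk.

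The number of members at an unadjusted p under 0.05 moved with single libraries and with the fit. It was 1 of 10 without WT 506, WT 527, KI 526 or KI 528 and 5 without KI 549, and 1 (Syk) with GC and length trends removed together. With limma-voom and sample weights it was 6, of which Hcst was higher in KI and Syk, Plcg2, Inpp5d, Vav1 and Bin1 were lower. The number over all tested genes moved as well, from 1347 of 17291 by edgeR's quasi-likelihood test on all 8 libraries. It was 1019 of 17977 without WT 506 and 1113 of 17936 without WT 527. Leaving out KI 526 gave 1252 of 17852, KI 528 1152 of 18068 and KI 549 1643 of 17998. Trend removal gave 1148 of 17284 and limma-voom with sample weights 1749 of 17291.

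**Figure D3:**
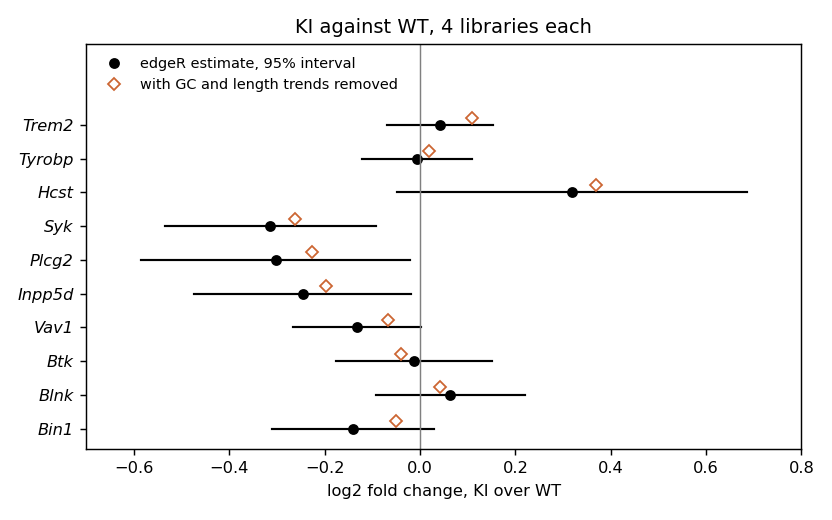
log2 fold change of KI over WT for each gene, with its 95% interval (line) from edgeR's quasi-likelihood fit; open diamonds are the values with GC and length trends of each library removed. Intervals of Syk, Plcg2 and Inpp5d exclude 0 before adjustment, and those of Trem2 and Tyrobp lie close around it.

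Ratios within a library, in which library size cancels, were compared for 4 pairs of members by 2-sided exact permutation tests on log2 FPKM ratios, where 4 against 4 libraries can give no p below 0.0286. In FPKM, Tyrobp exceeded Trem2 by 3.87 to 3.95 times in the WT libraries and by 3.63 to 4.05 times in KI. The WT ratios lay close together and the KI ratios spread on both sides of them (exact permutation p = 0.314, adjusted 0.629). Hcst stood at 0.0120 to 0.0180 of Tyrobp in WT and 0.0175 to 0.0202 in KI. KI 513 was below WT 503, and the difference did not pass (exact permutation p = 0.0571, adjusted 0.229). Syk to Inpp5d, kinase against phosphatase, had a mean ratio of 0.194 in WT and 0.186 in KI (exact permutation p = 0.686, adjusted 0.914). Plcg2 to Syk had a mean ratio of 3.14 in both (exact permutation p = 0.943). In none of the 4 ratios did the genotypes separate.

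Across the 8 libraries, 30 of the 45 pairs of members had a positive Pearson r of log2 CPM. Only Inpp5d with Bin1 passed adjustment over the 45 pairs, with r = 0.939 (exact permutation p = 2.48e-05, the smallest the permutations can give, adjusted 0.00112) and Spearman's rho = 1.0 (exact permutation p = 4.96e-05, adjusted 0.00223). These genes, the lipid phosphatase and the membrane-bending protein, lie on different chromosomes and ranked the 8 libraries in the same order, from KI 526 to WT 506. The relation held without the libraries farthest from the median of Inpp5d, KI 526 and KI 528 (r = 0.952), and with values centred on the group means (r = 0.906).

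Syk had r = 0.797 with Inpp5d, 0.794 with Vav1 and 0.766 with Plcg2, and Plcg2 had r = 0.799 with Inpp5d (exact permutation p from 0.0147 to 0.0234, each adjusted to 0.189, with rho from 0.619 to 0.833). Without KI 526 and KI 528 these fell to r = 0.183, 0.524, 0.145 and 0.638, so the relations of Syk with Inpp5d and with Plcg2 rest on those libraries. Trem2 had r = 0.382 with Tyrobp (rho = 0.429, exact permutation p = 0.351, adjusted 0.607; 0.145 without WT 506 and KI 528) and −0.693 with Plcg2 (rho = −0.405, exact permutation p = 0.0663, adjusted 0.294). The latter became 0.115 without the same libraries. Hcst and Tyrobp, the chromosomal neighbours, had r = −0.134 (rho = 0.119, exact permutation p = 0.753, adjusted 0.866), but 0.962 without WT 527 and KI 526, the libraries farthest from the median of Tyrobp, so no value for this pair holds. All pairs share the same 8 libraries and their depth.

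**Figure D4:**
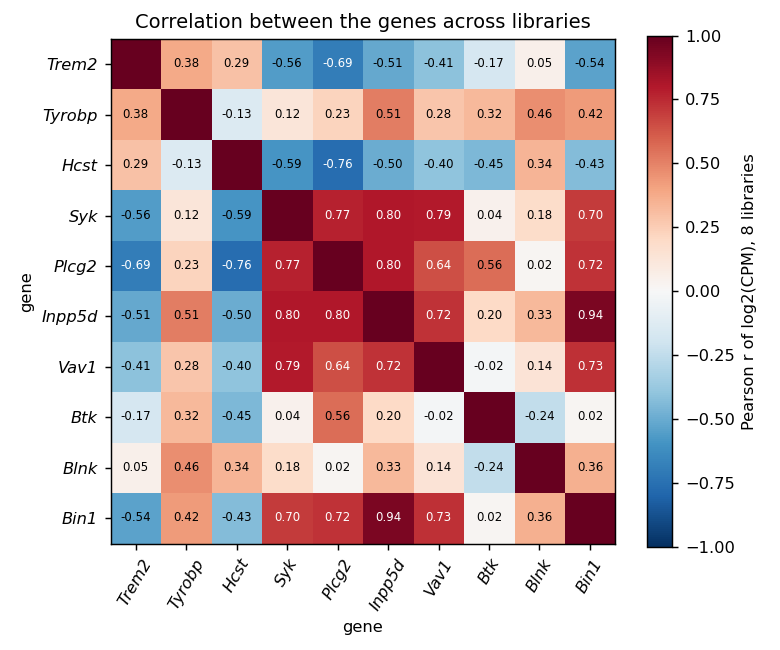
Pearson r of log2(CPM) across the 8 libraries for each pair of the 10 genes (red positive, blue negative). The Inpp5d and Bin1 cell holds the highest value, 0.939, and Syk, Plcg2, Inpp5d, Vav1 and Bin1 are positive with each other. Values are not centred on the group means, and all of these genes had lower means in KI.

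Among 6702 genes averaging 20 CPM or more, the profiles most like Trem2, by Pearson r of group-centred log2 CPM over 8 libraries, were those of Immt, a mitochondrial inner membrane organiser (r = 0.952), Npc2, a lysosomal cholesterol carrier (0.952), and Gm5514 (0.937). For Tyrobp they were Trpv2, a cation channel (0.974), Tmub2 (0.974) and Bad, a regulator of apoptosis (0.969). For Syk they were Acsl5, which activates fatty acids (0.964), Aspscr1 (0.956) and Smyd5 (0.954). These are the top of a ranking of 6702 genes over 8 libraries and are given as a description only.

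Trem2, Syk, Plcg2, Inpp5d, Vav1 and Btk each had the highest FPKM of the family members read, in all 8 libraries. Trem2 exceeded the other receptors of its gene cluster by at least 248 times in mean FPKM: Treml2 averaged 1.56 ± 0.415 FPKM in WT against 0.975 ± 0.359 for KI, Treml1 0.685 ± 0.149 and 0.776 ± 0.340, and Trem1, the amplifier of myeloid inflammation, had 22 reads over the WT and 18 over the KI libraries. Of 3 tested genes of the cluster, Treml2 had an unadjusted p under 0.05 (log2 fold change −0.67, edgeR adjusted p = 0.64). Zap70, the lymphocyte relative of Syk, had 10 reads over the WT and 3 over the KI libraries. Plcg1 averaged 2.36 ± 0.223 FPKM in WT and 2.39 ± 0.460 in KI, below Plcg2 by 13.5 times, and its log2 fold change was 0.03.

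Inppl1 (SHIP2) averaged 0.907 ± 0.103 and 1.08 ± 0.244 FPKM, 53.4 times below Inpp5d, and Vav2 4.56 ± 0.910 and 4.38 ± 0.662, 20.3 times below Vav1. Tec, the other Tec family kinase at a substantial level, averaged 10.2 ± 0.872 and 12.3 ± 1.75 FPKM, 3.92 times below Btk, with a log2 fold change of 0.27 (edgeR adjusted p = 0.631). Txk had 143 reads over the WT libraries (11 to 56 each) and 10 over the KI libraries (1 to 5 each), a difference without overlap at a very low level (edgeR adjusted p = 0.507, likelihood ratio test adjusted p = 0.0138). Blnk and Bin1 were not the highest among the genes read beside them, which for Blnk were other adaptors of ITAM signalling. Lcp2 (SLP-76) at 143 ± 6.07 and 151 ± 3.23 FPKM and Lat2 at 99.9 ± 10.2 and 103 ± 8.17 stood above Blnk in all 8 libraries, and Bin2 at 201 ± 28.2 and 176 ± 25.7 above Bin1.

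Genes around the chain were read from 16 lists with 173 genes, 156 of them tested. The lists were chosen with earlier results of these data known and were not matched to all tested genes in abundance. Their share at any p is therefore no independent evidence. The 156 tested genes had a median log2 fold change of −0.02. Of these, 0 had an edgeR adjusted p under 0.05, and 10 higher and 19 lower in KI had an unadjusted p under 0.05, or 18.6%, beside the 7.79% of all tested genes. Upstream, 1 of 4 tested ligand genes reached that level: Apoe, the lipid carrier that Trem2 binds, averaged 837 ± 75.7 CPM among WT and 1068 ± 249 among KI libraries (a log2 difference of 0.35, edgeR adjusted p = 0.604). KI 528 held 1419 CPM of it, and without that library the difference was 0.18. Among genes for shedding and stump cleavage, Aph1b of the gamma-secretase averaged 4.15 ± 1.67 and 1.83 ± 1.17 CPM (edgeR adjusted p = 0.6), while Adam10, the main sheddase, had a log2 fold change of −0.08 and Adam17 of −0.0010.

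Other receptors that use Tyrobp or Hcst had a median log2 fold change of 0.10 over 9 tested genes, and 1 of the 9 was lower at an unadjusted p under 0.05. Csf1r, the survival receptor of microglia, which also signals through Tyrobp, was read at 2550, 2854, 2921 and 3137 CPM in WT 503, 504, 506 and 527 and at 2325, 2015, 2120 and 2539 in KI 513, 526, 528 and 549. All KI libraries lay below all WT libraries, by a small margin between WT 503 and KI 549. Csf1r had a log2 fold change of −0.35 (edgeR adjusted p = 0.507, DESeq2 adjusted p = 0.0233). Siglech, at 324 ± 15.0 and 324 ± 14.2 FPKM close to Trem2, had a log2 fold change of 0.01, and Clec5a of 0.10 (563 ± 19.2 and 604 ± 19.99 CPM).

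Downstream lists were mixed. Of 10 tested genes of the Src family and its regulators, 0 had an unadjusted p under 0.05, and the smallest p belonged to Yes1 (42.7 ± 5.85 and 51.0 ± 4.90 CPM) and the phosphatase gene Ptprc, which encodes CD45 (1513 ± 18.5 and 1634 ± 129). Of 14 tested adaptors, 1 was higher and 1 lower: Nck1 averaged 100.1 ± 14.8 and 122.5 ± 16.9 CPM, and Pik3ap1, which links receptors to PI3K, 92.6 ± 14.1 and 60.6 ± 15.1 (edgeR adjusted p = 0.507, DESeq2 adjusted p = 0.0339). Of 12 genes that dampen ITAM signalling, 2 were lower. These were Cblb, a ubiquitin ligase, at 23.9 ± 2.32 and 13.4 ± 4.61 CPM (log2 fold change −0.83, edgeR adjusted p = 0.507, DESeq2 adjusted p = 0.0293), and the adaptor Dok1 (48.2 ± 10.4 and 32.5 ± 5.80). Over the whole lists, 6 of the 12 dampening genes had a log2 fold change above 0 and 6 below (median 0.0056), and 6 of the 14 adaptors were above and 8 below (median −0.09).

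In the PI3K and Akt arm 1 of 15 genes was higher, the kinase Gsk3b (262 ± 12.6 and 303 ± 15.8 CPM), and Pik3r2 averaged 7.41 ± 1.92 and 4.98 ± 1.15. In the calcium arm 2 of 21 were lower, Prkca (39.4 ± 6.84 and 31.8 ± 1.27 CPM) and Rasgrp4 (2.43 ± 0.930 and 1.01 ± 0.443). Among 14 genes of the Vav, Rac and actin list 3 were lower, and in 3 of the list the groups did not overlap with KI lower. Rac1, the GTPase that Vav1 activates, was read at 153, 118, 117 and 123 CPM in WT 503, 504, 506 and 527 and at 66.8, 96.3, 87.2 and 62.1 in KI 513, 526, 528 and 549. All KI libraries lay below all WT libraries, with a log2 fold change of −0.71 (edgeR adjusted p = 0.507, DESeq2 adjusted p = 0.00196, likelihood ratio test adjusted p = 0.00968). Rac2, its haematopoietic relative, averaged 161 ± 3.94 and 139.8 ± 12.3 CPM, also without overlap (edgeR adjusted p = 0.592).

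In the MAP kinase arm 2 of 11 genes were higher and 3 lower. The lower genes with the smallest p were Mapk3 (ERK1), at 34.3 ± 2.95 and 26.8 ± 0.901 CPM, and its activating kinase Map2k2, at 46.0 ± 2.12 and 37.4 ± 4.06, both without overlap of the groups. Of 6 tested relatives and partners of Bin1, 1 was lower, the membrane-cutting GTPase Dnm2 (104 ± 10.2 and 78.0 ± 12.1 CPM), and Sh3gl1 averaged 52.1 ± 12.9 and 39.8 ± 8.0. None of these genes had an edgeR adjusted p under 0.05.

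Disease-associated microglia (DAM) are a state reached around damaged tissue in stages, the later of which is known to need Trem2. Of 10 genes listed here for the Trem2-dependent stage, all 10 had a log2 fold change above 0, from 0.09 (Itgax) to 0.52 (Gpnmb). Their median was 0.28, and 4 reached an unadjusted p under 0.05. Of all 17291 tested genes, 8663 were above 0, and 3.23% were higher in KI at that level. The list was chosen with higher values of such genes in KI already known, so its direction is no independent evidence. The 4 listed genes at that level were Ccl6 (525 ± 15.4 CPM in WT and 593 ± 40.4 in KI), the beta-glucan receptor Clec7a (136 ± 14.7 and 169.6 ± 26.4), Lpl (log2 fold change 0.25) and Cd9 (0.14). The last 2 were named after their values were seen. In Clec7a the groups did not overlap: WT libraries held 117 to 152 CPM, and KI libraries 154 (KI 513), 161 (KI 526), 209 (KI 528) and 155 (KI 549). Of 7 genes of the Trem2-independent stage, 5 were above 0, with a median of 0.06, and 1 was lower at that level, the protease gene Ctsd (2351 ± 112 and 2078 ± 218 CPM). Whether the stages differ from each other was not tested, and 0 genes of either had an edgeR adjusted p under 0.05. The counts hold for the lists as drawn up here, in which Timp2 (log2 fold change −0.0) was counted as Trem2-independent and Apoe (0.35) as a ligand. Another assignment of such genes to the stages would change them. Border-associated macrophage markers summed to 5.40 to 6.87 CPM in WT and 4.94 to 17.1 in KI, and their part in these values was not tested. Without KI 528, which held the most of those markers, 1 of the 10 genes of the Trem2-dependent stage reached an unadjusted p under 0.05 and the median was 0.20. The count was 1 without WT 506, 2 without KI 513 or KI 526, and 0 with GC and length trends removed (median 0.26). Over all tested genes, those higher in KI at that level were 416 of 18068 without KI 528 and 437 of 17977 without WT 506. They were 517 of 18049 without KI 513, 442 of 17852 without KI 526 and 459 of 17284 with those trends removed.

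Of 10 transcription factors known to act on microglial Trem2 or Tyrobp expression, 1 had an unadjusted p under 0.05. Spi1 was read at 269, 318, 309.9 and 325 CPM in WT 503, 504, 506 and 527 and at 233, 237, 245 and 186 in KI 513, 526, 528 and 549. All KI libraries lay below all WT libraries, with a log2 fold change of −0.44 (SE 0.096), an edgeR adjusted p of 0.507, a DESeq2 adjusted p of 0.00937 and a likelihood ratio test adjusted p of 0.0321. KI 549 was the lowest in Spi1. In that library Plcg2, Inpp5d and Bin1 were inside the WT range, and Syk and Vav1 lay below every WT library. The relation of Spi1 to the members was not tested. Mef2a averaged 964 ± 92.1 and 832 ± 100.1 CPM (edgeR adjusted p = 0.65), and log2 fold changes were 0.06 for Mef2c and −0.08 for Irf8.

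**Figure D5:**
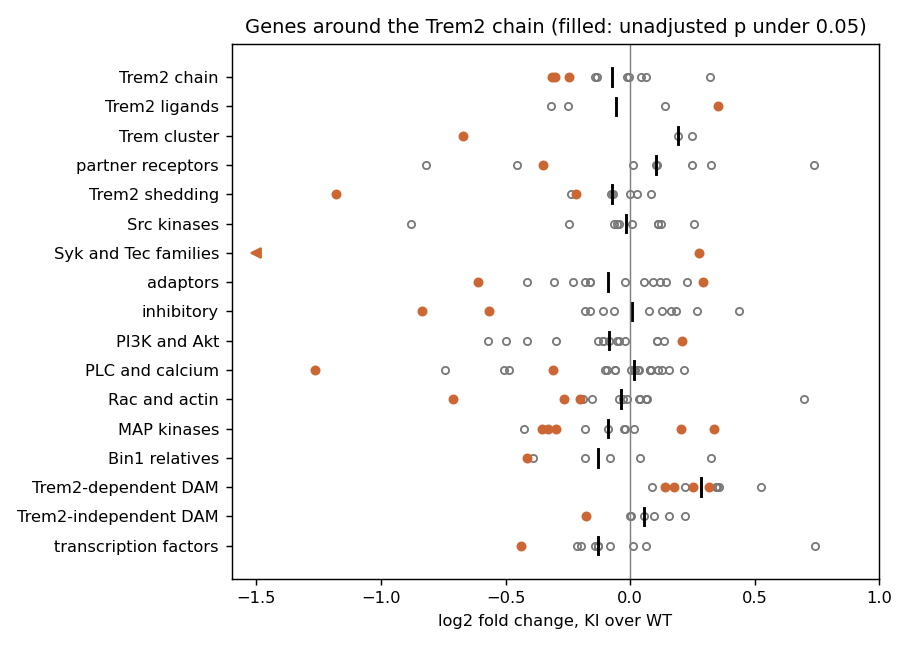
log2 fold change of KI over WT for the tested genes of the Trem2 chain and of the 16 lists around it; filled points have an unadjusted p under 0.05, black bars are the medians of lists with 3 or more tested genes, and the arrow is Txk, which lies off the scale. Points of the Trem2-dependent DAM list all lie to the right of 0.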

How the data were processed

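The deposited counts were made by the authors with featureCounts 2.0.3 over exons summed by gene on mm10, with paired-end input, primary alignments only and no strand option, per the file headers. STAR 2.7.5c, SAMtools 1.9, R 3.6.0, edgeR and limma are listed in the submitters' processing notes. No option to count fragments is in the header, and 68.9% to 70.8% of counts from 1 to 9 were even. FPKM values were deposited by the authors; they equal the read count divided by library total and by exon length, after 190 bases are taken off that length. Columns of the count table that match no label (8) and a table of counts divided by size factors were not used.

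The members and lists were chosen with earlier results of these data known. Counts were analysed with edgeR 4.0.16 (R 4.3.3): TMM, filterByExpr (minimum count 10, minimum total 15), quasi-likelihood test with robust dispersion, group as the only term, and Benjamini-Hochberg adjustment over 17291 genes (threshold 0.05). Each library is 1 mouse, and errors are SDs over 4 libraries. Libraries of a group differed by more than sampling noise (chi-square per degree of freedom 28.4 to 63.5). Ratios, marker sums and correlations used exact permutation tests. Alternatives were DESeq2 1.42.0, limma 3.58.1, other scalings, no filter, log2(FPKM + 1) and log2(FPKM + 0.1), removed GC and length trends, and each library left out; the list of Trem2-dependent genes was recomputed under these after its values were seen. The fit was tested on simulated counts. Genes named from each list were the 2 with the smallest p, and for Trem2, Tyrobp and Syk the 3 most alike. Some items are not reported here.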

Additional observations from a re-analysis of the deposited data

Results flagged for a closer look

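Of 114 groups of 4 libraries screened (members, genes named from the lists, marker sums and ratios), 6 had 1 library standing far from the other 3, where chance gives about 1 in 20 groups. Tyrobp was at 549 CPM in KI 526, against 585 CPM in the nearest KI library. In KI 549, Pik3ap1 was at 83.1 CPM, against 54.8 in the nearest KI library, and Aph1b at 3.56 CPM, against 1.42. Clec7a was at 209 CPM in KI 528, against 161 in the nearest KI library. Neutrophil markers summed to 18.4 CPM in WT 504, and astrocyte markers to 321 CPM in KI 549, each far from the rest of its group. Slc1a3 made up most of the astrocyte sum, with a mean of 335.4 CPM over the 8 libraries, and Aldoc was next at 13.6.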

How the results depend on the processing

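No member had an adjusted p under 0.05 under any of the 18 alternatives, among them each library left out in turn. Over all genes DESeq2 called 139, the likelihood ratio test 42 and limma on log2(FPKM + 1) 1. Beside the members, DESeq2 gave an adjusted p under 0.05 for Csf1r (log2 fold change −0.35), Pik3ap1 (−0.61), Cblb (−0.83), Rac1 (−0.71) and Spi1 (−0.44), and the likelihood ratio test for Txk, Rac1 and Spi1. Tyrobp turned to 0.018 with GC and length trends removed and ranged from −0.022 to 0.018 with 1 library left out. In the same way Btk ranged from −0.043 to 0.017, Treml1 from −0.12 to 0.40, the log2 ratio difference of Syk to Inpp5d from −0.12 to 0.015, and that of Plcg2 to Syk from −0.069 to 0.082. Marker sums (CPM, KI minus WT) ranged from −1778 to 7.03 for microglia, −2.41 to 24.9 for astrocytes, −3.89 to 3.07 for endothelium, −27.9 to 35.0 for B cells, −0.459 to 0.599 for T and NK cells, −1.28 to 4.51 for neurons and −1.88 to 5.14 for monocytes. Of the 10 genes listed for the Trem2-dependent stage, 10 stayed above 0 under 17 of the 18 alternatives and 9 without WT 506, a check chosen after seeing the data. No paired analysis was run, because the labels give no litter, batch or other link between mice of the 2 genotypes. Hcst, with 410 to 685 reads per library, is the member that depth limits most.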
